A study of Mus musculus with 12 samples.

Results

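The genes described here carry fatty acid oxidation and ketone body metabolism, together with well-known targets of the PPAR transcription factors. They were chosen by symbol, as 36 genes of these pathways, of which 35 reached a mean of 10 normalized counts over the 12 libraries and were tested, among 17768 genes that passed the same limit and 28591 genes in all. The muscle carnitine palmitoyltransferase gene *Cpt1b* is the member below the limit, with 2.9 to 16.6 normalized counts in the WT libraries and 0.994 to 13.6 in the rd6 libraries. The study sequenced RNA of the retinal pigment epithelium (RPE) from 6 WT and 6 rd6 animals at 1 mo of age, the latter being Mfrp rd6/rd6, and each library holds the RPE RNA of 1 animal with its eyes combined. The labels give the WT animals as C57BL/6J and no strain for the rd6 animals. The study's methods name both sexes, and the mutation is carried in every cell of the animal, so that the model is not limited to the RPE. The question was how the RPE transcriptome differs when the membrane protein MFRP is lost. The deposited values are read counts divided by a size factor of each library, called normalized counts below.

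Long-chain fatty acids enter mitochondria as carnitine esters and are shortened in cycles of dehydrogenation, hydration, a further dehydrogenation and thiolysis, while peroxisomes handle very long and branched chains. Acetyl-CoA that is left over can be turned into ketone bodies, and the RPE is known for doing so with the lipids of phagocytosed photoreceptor outer segments and for passing the product to the retina. PPARs are nuclear receptors that bind fatty acids, pair with RXR receptors and switch on many of these genes, with lipid droplet proteins such as perilipins and the secreted lipase inhibitor ANGPTL4 among the targets shared by several tissues.

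The sequences of a pair of members are shown first because their counts can only be read with them in view. *Acot1* and *Acot2* encode the cytosolic and the mitochondrial long-chain acyl-CoA thioesterase, which release free fatty acids from acyl-CoA, and lie side by side on chromosome 12 on the same strand, 15616 bp apart. Their coding sequences have 1260 and 1362 bases, and 1180 of the 1239 aligned bases are identical (95.2%). The longest identical run has 273 bases, longer than a single read, and 16.5% of the windows of 100 bases in the *Acot1* transcript and 17.1% of those in the *Acot2* transcript occur unchanged in the other. A read from such a window can be assigned to either gene only where its mate of the pair lies outside, and how the counting treated the others is not stated. A stretch of 90 coding bases with 14 differences shows where reads can be told apart, with the differing bases in capitals (GRCm38, plus strand, chr12:84016916-84017005 for *Acot1* and chr12:83992638-83992727 for *Acot2*).
Acot1: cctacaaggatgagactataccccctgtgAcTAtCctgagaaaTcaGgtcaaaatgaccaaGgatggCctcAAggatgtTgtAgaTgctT
Acot2: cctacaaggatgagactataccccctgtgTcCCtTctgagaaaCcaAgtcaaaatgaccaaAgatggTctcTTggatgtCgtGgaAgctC

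The promoters of the 4 members that stand in pairs of neighbouring genes and moved within their pair in the same direction are given for comparison. They cover 250 bases before to 50 after the annotated start, from RefSeq (GRCm38.p6), 5′ to 3′ in the direction of the gene, with the hexamer AGGTCA, the core of the sites that PPAR and RXR bind, in capitals on either strand. *Acot1* lies at chr12:84009252-84009551 and *Acot2* at chr12:83987611-83987910, both on the plus strand. *Plin4* lies at chr17:56109733-56110032 and *Plin5*, whose upstream start is shown, at chr17:56117499-56117798, both on the minus strand.
Acot1: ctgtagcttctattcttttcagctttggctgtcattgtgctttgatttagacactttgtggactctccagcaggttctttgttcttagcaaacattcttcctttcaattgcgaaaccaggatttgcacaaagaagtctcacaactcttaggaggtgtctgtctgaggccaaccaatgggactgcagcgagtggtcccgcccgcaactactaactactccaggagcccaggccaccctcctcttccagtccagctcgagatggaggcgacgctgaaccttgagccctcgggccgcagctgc
Acot2: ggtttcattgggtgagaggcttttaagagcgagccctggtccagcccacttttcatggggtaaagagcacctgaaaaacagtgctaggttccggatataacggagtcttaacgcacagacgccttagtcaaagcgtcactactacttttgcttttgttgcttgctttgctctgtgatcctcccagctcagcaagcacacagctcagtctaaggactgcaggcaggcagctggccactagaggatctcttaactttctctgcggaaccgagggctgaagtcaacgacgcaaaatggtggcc
Plin4: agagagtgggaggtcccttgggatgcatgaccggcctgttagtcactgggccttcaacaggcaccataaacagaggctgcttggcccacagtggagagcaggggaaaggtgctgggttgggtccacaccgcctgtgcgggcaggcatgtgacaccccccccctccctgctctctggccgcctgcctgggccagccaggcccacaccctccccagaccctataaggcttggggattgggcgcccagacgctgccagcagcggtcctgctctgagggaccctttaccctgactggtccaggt
Plin5: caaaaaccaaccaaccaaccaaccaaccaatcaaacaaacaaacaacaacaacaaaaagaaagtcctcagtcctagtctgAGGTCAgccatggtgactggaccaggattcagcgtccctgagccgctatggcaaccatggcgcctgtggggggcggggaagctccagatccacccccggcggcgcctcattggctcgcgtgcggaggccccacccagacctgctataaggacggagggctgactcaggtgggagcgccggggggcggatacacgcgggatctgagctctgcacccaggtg

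The *Acot1* and *Acot2* promoters share no run longer than 9 bases, in contrast to their coding sequences. Of these windows only that of *Plin5* holds the hexamer. Promoters were found for 29 members, 32 windows in all. None was found for *Acaa2*, *Acat1*, *Angptl4*, *Crat* and *Decr1*, which passed the test between genotypes, or for *Cpt1b* and *Hsd17b4*. The hexamer, searched on both strands, was in 7 of the 32 (21.9%), those of *Acadm*, *Acadvl*, *Cpt1a*, *Plin2*, *Ucp3* and both starts of *Plin5*, against 16.3% of all 32851 promoters. The DR1 element, the hexamer repeated in the same orientation with 1 base between, was searched on both strands with up to 2 mismatched letters in its 12 hexamer positions. It was in 2 of the 32 windows (6.25%) and in 3.86% of all. Both matches had 2 mismatched letters and are printed with the matching letters in capitals, that of *Plin2* at chr4:86670272-86670284 and that of *Ucp3* at chr7:100472940-100472952, each on the plus strand of the genome.
Plin2: AGGTCAggGGTCc
Ucp3: AGGTttcAGGTCA

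The hexamer is part of the DR1 element, so these windows count in both searches. Neither gene passed the test between genotypes. A match of letters is a description and not a binding site.

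In the WT RPE the members ranged over 316-fold when set per kb of exon, from 11.2 normalized counts per kb for *Plin5* to 3531 for the mitochondrial thiolase *Acaa2*. Next to *Acaa2* stood the enoyl-CoA isomerase *Eci1* with 3455 per kb, the long-chain acyl-CoA dehydrogenase *Acadl* with 2802, the dienoyl-CoA isomerase *Ech1* with 2750 and the very long-chain acyl-CoA dehydrogenase *Acadvl* with 2386. At the low end were *Ppara* with 73.2 and the uncoupling protein gene *Ucp3* with 28.1 per kb. Of the 34 pairs of neighbours in this order, 30 had overlapping ranges over the 6 WT libraries and are not separated by these data. Only 4 steps were wider than the spread, those from *Ucp2* to *Cpt1a*, from *Acat1* to *Cpt2*, from *Crat* to *Plin4* and from *Ppara* to *Ucp3*. The median coefficient of variation of a member was 10.8% among WT and 9.48% among rd6 libraries.

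**Figure D1:**
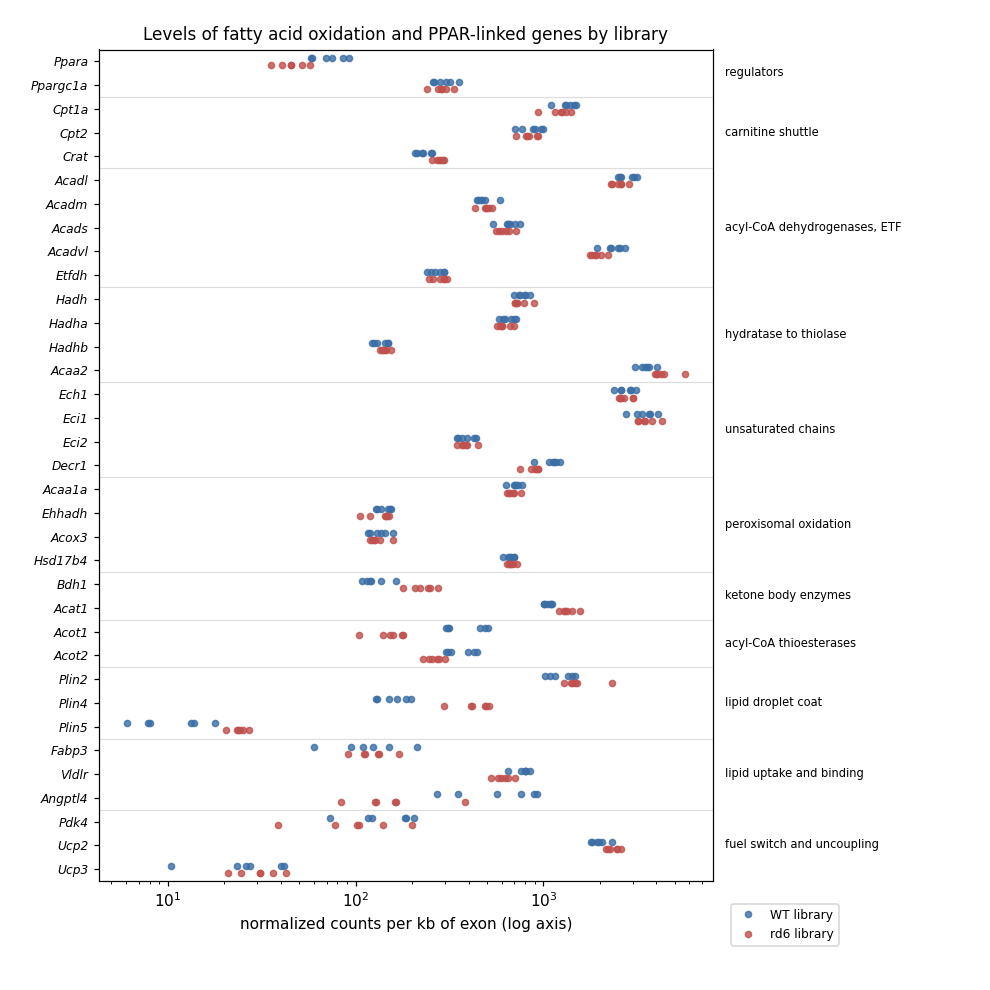
Normalized counts per kb of exon (log axis) of the 35 members in each of the 6 WT (blue) and 6 rd6 (red) libraries, ordered by role. Points of both genotypes lie over each other for most enzymes of oxidation and stand apart for *Plin4*, *Plin5*, *Bdh1*, *Acat1*, *Acot1*, *Acot2* and *Ppara*.

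Before the comparison, some facts of the libraries bear on it. The reads on genes numbered 29218135 to 33152725 in WT and 28907262 to 32336530 in rd6 libraries, and 3 reads correspond to 2.71 to 3.32 normalized counts. *Mfrp* itself was at 30132 to 45442 normalized counts in WT and 20442 to 29732 in rd6 libraries (log2 fold change −0.63, limma q = 0.00126), without overlap. It shares exon sequence with genes next to it. *Nnt*, a mitochondrial gene disrupted in C57BL/6J mice, was low in both genotypes, at 4.43 to 9.29 and 2.06 to 14.9. Another gene entry of the same name shares exon positions with it on the same strand, so the low values do not settle the strain. The RPE markers were high in all libraries, with sums of 1470914 to 2226383 in WT and 1387603 to 1873673 in rd6 over 8 genes, of which 4 fell and 0 rose. Microglia and macrophage markers rose in 9 of 10 genes in rd6 (sums of 15834 to 21013 against 24944 to 35833, carried mostly by *Csf1r*, the gene that did not pass the test). Skeletal muscle markers rose in 7 of 10 genes (14299 to 54584 against 50979 to 74583, with the lowest sum in WT replicate 1). Choroidal endothelial markers rose in 4 of 6 genes. Rod markers fell in 4 of 8 genes, with sums of 31796 to 68481 in WT and 16473 to 58751 in rd6 libraries. Keratins of the ocular surface were above 10000 normalized counts of *Krt5* in WT replicate 4 and rd6 replicates 1 and 5, which also stood together on the first principal component (49.6% of the variance). The counts of members and of further pathway genes are therefore also given without these 3 libraries. In bulk RNA, fewer cells of a type and less RNA per cell cannot be told apart.

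Between genotypes the members moved in both directions. Of 35 tested, 7 rose (20%) and 7 fell (20%) in rd6 RPE at limma q below 0.05 (Benjamini-Hochberg over all genes tested), where 11.4% of all genes rose and 11.6% fell. The median log2 fold change was −0.03 for the members and 0.00 for all genes. With a further limit of 0.81 on the log2 scale in either direction, the fold limit of the study, 3 members rose, *Plin4*, *Plin5* and *Bdh1*, and 2 fell, *Angptl4* and *Acot1*, beside 4.69% and 2.12% of all genes. *Bdh1* fell short of this limit without WT replicate 5 (0.80) or without rd6 replicate 4 (0.79). For 4 members, *Plin4*, *Plin5*, *Bdh1* and *Acat1*, all rd6 libraries exceeded all WT libraries (5.77% of all genes), and for 3, *Ppara*, *Acot1* and *Acot2*, all were below (5.67% of all genes). Without the 3 libraries rich in keratin, 5 members rose and 7 fell, 3 and 2 of them past the fold limit. The thiolase *Acaa2* (q = 0.0913) and the uncoupling protein gene *Ucp2* (q = 0.101) were then no longer called. The 21 members that did not pass had log2 fold changes between −0.51 and 0.31, and for 17 of them the 95% interval lay within 0.5 of zero on the log2 scale.

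**Figure D2:**
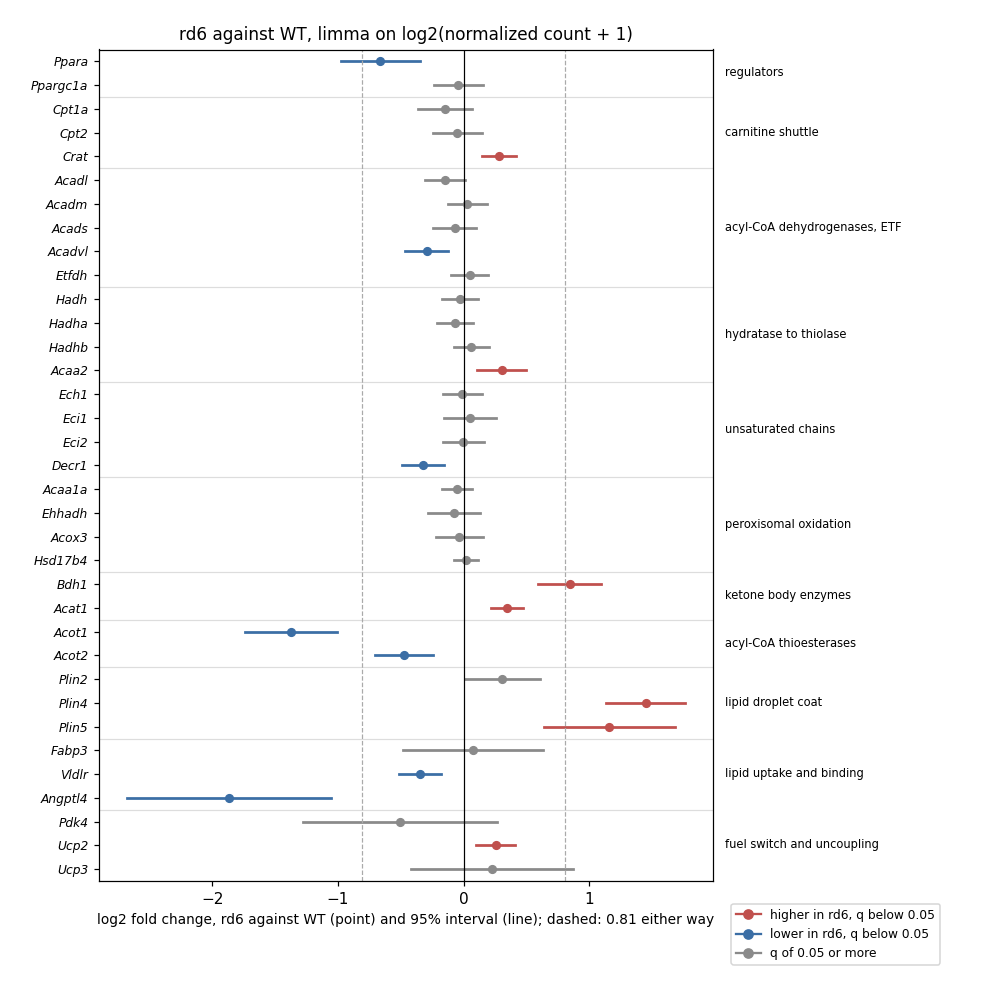
Log2 fold change of rd6 against WT (points) with its 95% interval (lines) for the 35 members by role, from limma on log2(normalized count + 1); dashed lines mark 0.81 in either direction. The 7 members in red rose, the 7 in blue fell, and most enzymes of the mitochondrial and peroxisomal cycle lie close to 0, apart from *Acaa2* (0.30), *Acadvl* (−0.29) and *Decr1* (−0.32).

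Of the regulators, *Ppara*, the PPAR receptor of fatty acid catabolism, fell and the coactivator gene *Ppargc1a* did not pass the test. *Ppara* stood at 355, 329, 288, 266, 224 and 222 normalized counts in the WT libraries, in the order of the replicate numbers as throughout, and at 174, 156, 175, 221, 135 and 198 in the rd6 libraries. The groups met without overlap, the highest rd6 library at 221 lying just under the lowest WT library at 222. The means were 280.8 ± 54.4 and 176.4 ± 30.1 (SD, n = 6 each), with a log2 fold change of −0.66 (SE 0.15, limma q = 0.00568). *Ppargc1a* had 2341, 1999, 1864, 1724, 1709 and 2088 in WT and 1811, 1885, 1999, 2213, 1579 and 1897 in rd6 libraries, a log2 fold change of −0.04 (limma q = 0.78). Its groups overlapped almost throughout. The other PPAR genes stood differently. *Pparg* had a log2 fold change of 0.01 (limma q = 0.977), with 132 to 155 normalized counts in WT and 106 to 168 in rd6 libraries. *Ppard* rose by 0.16 on the log2 scale (limma q = 0.0288), from 911.3 ± 46.4 to 1018 ± 44.7 (SD, n = 6 each).

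In the carnitine shuttle, which carries acyl groups into mitochondria, the gatekeeping enzyme gene *Cpt1a* did not pass and the carnitine acetyltransferase gene *Crat* rose slightly. *Cpt1a* had 11406, 10082, 9924, 8349, 10603 and 11187 normalized counts in WT and 9666, 8803, 10115, 10672, 7146 and 9453 in rd6 libraries. The groups overlapped, with rd6 replicate 5 lowest, and the log2 fold change was −0.14 (limma q = 0.327). *Crat* had 1146, 1353, 1377, 1121, 1219 and 1225 in WT and 1585, 1496, 1372, 1457, 1579 and 1545 in rd6 libraries. Only rd6 replicate 3 fell within the WT range, and the log2 fold change was 0.28 (SE 0.06, limma q = 0.00531). *Crat* overlaps an exon of *Dolpp1* on the other strand, and the strand setting of the counting is not stated. *Cpt2*, the inner-membrane partner of *Cpt1a*, had a log2 fold change of −0.05 (limma q = 0.717).

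Among the acyl-CoA dehydrogenases, which take the first oxidation step for chains of different length, only *Acadvl* passed the test. It had 6193, 6094, 6903, 5217, 7349 and 6696 normalized counts in WT and 5467, 4890, 5073, 5151, 4757 and 5915 in rd6 libraries. It fell by 0.29 on the log2 scale (SE 0.08, limma q = 0.0192), and the WT library within the rd6 range was replicate 4. An exon of *Dvl2* overlaps *Acadvl* on the other strand. *Acadl* had 5208, 5137, 5988, 5019, 6297 and 6065 in WT and 5199, 4997, 4657, 5187, 4599 and 5731 in rd6 libraries, with a log2 fold change of −0.15 (limma q = 0.166) and overlapping groups. The medium-chain gene *Acadm*, the short-chain gene *Acads* and *Etfdh*, whose product passes the electrons to the respiratory chain, had log2 fold changes of 0.03, −0.07 and 0.05.

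The later steps of the mitochondrial cycle changed little. *Acaa2*, the thiolase that releases acetyl-CoA, had 5101, 5277, 5439, 4685, 6095 and 5523 normalized counts in WT and 6669, 5968, 6091, 6095, 6405 and 8610 in rd6 libraries. It rose by 0.30 on the log2 scale (SE 0.09, limma q = 0.0281), with the highest value in rd6 replicate 6, and the call was lost on leaving out WT replicate 1 (q = 0.0578), WT replicate 2 (q = 0.0548) or rd6 replicate 1 (q = 0.0507). *Hadh*, the hydroxyacyl-CoA dehydrogenase of medium and short chains, had a log2 fold change of −0.03. *Hadha* and *Hadhb*, the subunits of the trifunctional protein, are transcribed from divergent starts 85 bp apart and had log2 fold changes of −0.07 and 0.06.

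The auxiliary enzymes handle double bonds. *Decr1*, the dienoyl-CoA reductase needed for polyunsaturated chains, had 4383, 4166, 4429, 3480, 4787 and 4545 normalized counts in WT and 3514, 3529, 3335, 3623, 2913 and 3654 in rd6 libraries. WT replicate 4 was the library of its group that lay among the rd6 values. The log2 fold change was −0.32 (SE 0.08, limma q = 0.01). *Eci1* had 7129, 6744, 7789, 5849, 8728 and 7852 in WT and 6812, 7424, 7345, 8062, 6833 and 9090 in rd6 libraries, a log2 fold change of 0.05 (limma q = 0.739). *Ech1* and *Eci2* had log2 fold changes of −0.01 (limma q = 0.937) and −0.0014 (limma q = 0.992).

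None of the 4 peroxisomal members passed the test. *Acaa1a*, the peroxisomal thiolase, had 3133, 3217, 3091, 2810, 3408 and 3144 normalized counts in WT and 2821, 2918, 2888, 3055, 3077 and 3354 in rd6 libraries (log2 fold change −0.05, limma q = 0.515). *Ehhadh*, the bifunctional enzyme and a classical PPARα target, had 458, 445, 456, 388, 382 and 405 in WT and 356, 437, 425, 451, 314 and 430 in rd6 libraries (log2 fold change −0.08, limma q = 0.601). The groups of both overlapped. *Acox3*, an oxidase of branched chains, had a log2 fold change of −0.03 (95% interval −0.22 to 0.15), and *Hsd17b4*, the D-bifunctional enzyme, of 0.02 (95% interval −0.08 to 0.12).

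Both ketone body enzymes rose. *Bdh1*, the mitochondrial β-hydroxybutyrate dehydrogenase, had 636, 449, 470, 533, 421 and 466 normalized counts in WT and 692, 858, 950, 1067, 973 and 805 in rd6 libraries. No rd6 library reached down to the WT values, with WT replicate 1 and rd6 replicate 1 nearest to each other. The means were 495.8 ± 78.1 and 890.9 ± 134 (SD, n = 6 each), which is 0.84 on the log2 scale (SE 0.12, limma q = 0.000241). *Acat1*, the acetoacetyl-CoA thiolase, had 4083, 3796, 4122, 3794, 4192 and 3930 in WT and 4833, 4560, 4882, 5347, 5018 and 5864 in rd6 libraries. Its groups did not overlap either, and it rose by 0.35 on the log2 scale (SE 0.06, limma q = 0.00104). *Bdh1* overlaps the gene model *Gm15743* on the other strand, and *Acat1* lies 9.47 Mb from *Mfrp* on chromosome 9.

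Both thioesterase genes fell, by different amounts. *Acot1* had 1217, 1238, 1915, 1191, 1802 and 1991 normalized counts in WT and 704, 549, 599, 618, 408 and 695 in rd6 libraries. The lowest WT library was above the highest rd6 library by a wide margin, and the means were 1559 ± 382 and 595.5 ± 109 (SD, n = 6 each), 2.59-fold lower in rd6 RPE (limma q = 9.38e-05). *Acot2* had 685, 668, 876, 709, 940 and 970 in WT and 593, 562, 543, 612, 499 and 655 in rd6 libraries. Its groups did not overlap but came close, and it fell by 0.47 on the log2 scale (SE 0.11, limma q = 0.00699). WT replicates 3, 5 and 6 were the highest for both genes. They were also the highest WT libraries for other members, such as *Acadl*, *Acadvl*, *Angptl4* and *Plin2*, though not for *Ppara* or *Plin4*. The ratio of *Acot1* to *Acot2* was 1.91 ± 0.185 in WT, between 1.68 and 2.18, and 1.03 ± 0.126 in rd6 libraries, between 0.817 and 1.19 (SD, n = 6 each). This is 1.87-fold lower in rd6 (exact permutation test, two-sided p = 0.00216, the smallest that the arrangements into 6 and 6 allow). Since part of both transcripts is identical, as the sequences above show, the levels and the ratio are uncertain in size.

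Of the lipid droplet coat genes, *Plin4* and *Plin5* rose and *Plin2* did not pass the test. *Plin4* had 866, 955, 748, 1146, 746 and 1068 normalized counts in WT and 2839, 2419, 2845, 2962, 2371 and 1719 in rd6 libraries. Even the lowest rd6 library, replicate 6, exceeded the highest WT library. The means were 921.5 ± 166 and 2526 ± 464 (SD, n = 6 each), a 2.73-fold rise (log2 fold change 1.45, SE 0.14, limma q = 1.5e-05). *Plin5*, the perilipin that ties droplets to mitochondria, had 16.8, 27.9, 37.3, 12.6, 28.8 and 16.4 in WT and 50.4, 56.7, 49.3, 48.7, 42.4 and 52.7 in rd6 libraries. The groups did not overlap, and the log2 fold change was 1.16 (SE 0.24, limma q = 0.00413), from 13 to 55 reads per library. The genes lie 1797 bp apart on the same strand of chromosome 17, and *Plin4* overlaps an exon of *Hdgfl2* on the other strand. *Plin2*, the perilipin found on droplets of nearly all cells, had 4033, 3798, 4772, 3590, 5177 and 5000 in WT and 5160, 5290, 4514, 4975, 4903 and 8156 in rd6 libraries. The groups overlapped and rd6 replicate 6 stood far above the rest (log2 fold change 0.31, limma q = 0.131). *Plin4* is also known from fat and muscle and *Plin5* from muscle and heart. The muscle markers rose in 7 of 10 genes with the sums given above, and their part in the rise of *Plin4* and *Plin5* was not tested. The 7 adipocyte markers summed to 48.3 to 144 normalized counts in WT and 87.8 to 177 in rd6 libraries, with 0 of the 2 tested genes called and a median log2 fold change of 0.77 for this pair. Of these markers, *Adipoq*, *Plin1*, *Cidec* and *Lep* were at or near 0, with at most 11.1 normalized counts in any library. The sums also hold *Fabp4*, *Retn* and *Cfd*, and the part of adipocytes in the rise of *Plin4* and *Plin5* was not tested.

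**Figure D3:**
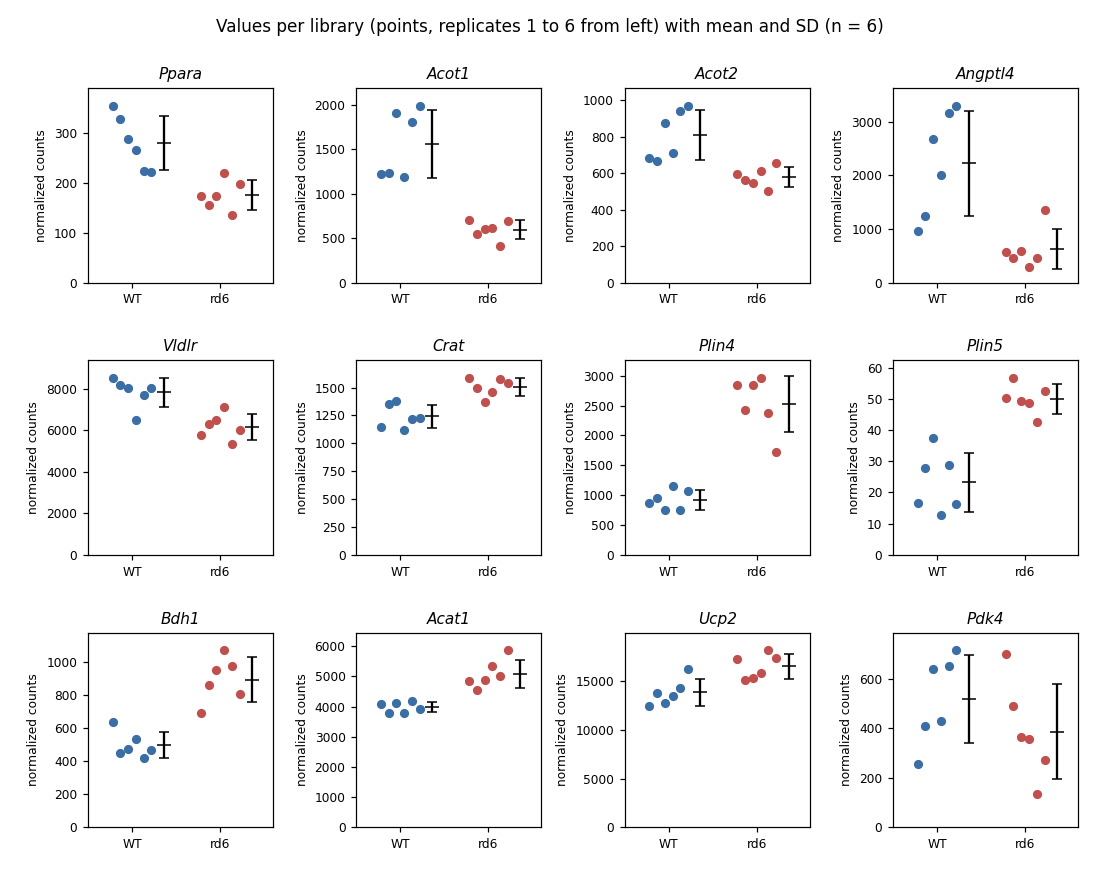
Normalized counts of members in every library (points, replicates 1 to 6 from left), with the mean and SD of each genotype (n = 6). Groups of *Ppara*, *Acot1*, *Acot2*, *Plin4*, *Plin5*, *Bdh1* and *Acat1* do not overlap, while *Angptl4* overlaps through rd6 replicate 6, *Crat* through rd6 replicate 3, *Vldlr* through WT replicate 4, *Ucp2* through WT replicate 6 and *Pdk4* over most of its range.

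Among the genes of lipid uptake and binding, *Angptl4* and *Vldlr* fell and *Fabp3* did not pass. *Angptl4*, the secreted inhibitor of lipoprotein lipase, had 956, 1240, 2678, 1997, 3159 and 3297 normalized counts in WT and 575, 449, 583, 298, 455 and 1347 in rd6 libraries. Only rd6 replicate 6 reached into the WT range, above WT replicates 1 and 2. The means were 2221 ± 986 and 617.9 ± 372 (SD, n = 6 each), a 3.65-fold fall (log2 fold change −1.87, SE 0.37, limma q = 0.00325). *Vldlr*, the receptor for triglyceride-rich lipoproteins, had 8527, 8182, 8034, 6491, 7701 and 8047 in WT and 5764, 6294, 6503, 7110, 5330 and 6010 in rd6 libraries. WT replicate 4 alone lay within the rd6 range, and *Vldlr* fell by 0.34 on the log2 scale (SE 0.08, limma q = 0.00696). *Fabp3*, the heart-type fatty acid binding protein, varied from 49.3 to 174 in WT and from 75 to 140 in rd6 libraries, with a log2 fold change of 0.08 (95% interval −0.48 to 0.63). Lipoprotein lipase itself, *Lpl*, rose by 1.23 on the log2 scale, from 195 to 870 in WT to 597 to 1921 in rd6 libraries, with overlap (limma q = 0.0265). *Lpl* is also expressed by macrophages, whose markers rose in 9 of 10 genes, and their part in its rise was not tested.

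Of the genes for fuel choice and uncoupling, *Ucp2* rose slightly and *Pdk4* and *Ucp3* did not pass. *Ucp2*, an inner-membrane carrier, had 12485, 13792, 12746, 13467, 14332 and 16263 normalized counts in WT and 17254, 15099, 15367, 15862, 18168 and 17365 in rd6 libraries. It was higher in all rd6 libraries than in WT replicates 1 to 5, and the log2 fold change was 0.26 (SE 0.07, limma q = 0.0213, and 0.0513 without WT replicate 3). It overlaps *Dnajb13* on the other strand. *Pdk4*, the pyruvate dehydrogenase kinase that spares glucose and a classical PPAR target, had 257, 410, 641, 429, 652 and 715 in WT and 701, 490, 366, 356, 135 and 271 in rd6 libraries. The groups covered nearly the same range, with a log2 fold change of −0.51 (95% interval −1.28 to 0.27, limma q = 0.339), so that this design did not resolve a change of the size seen for *Acot2*. *Ucp3* varied from 32.5 to 131 in WT and from 65.9 to 133 in rd6 libraries (log2 fold change 0.23, limma q = 0.626).

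**Figure D4:**
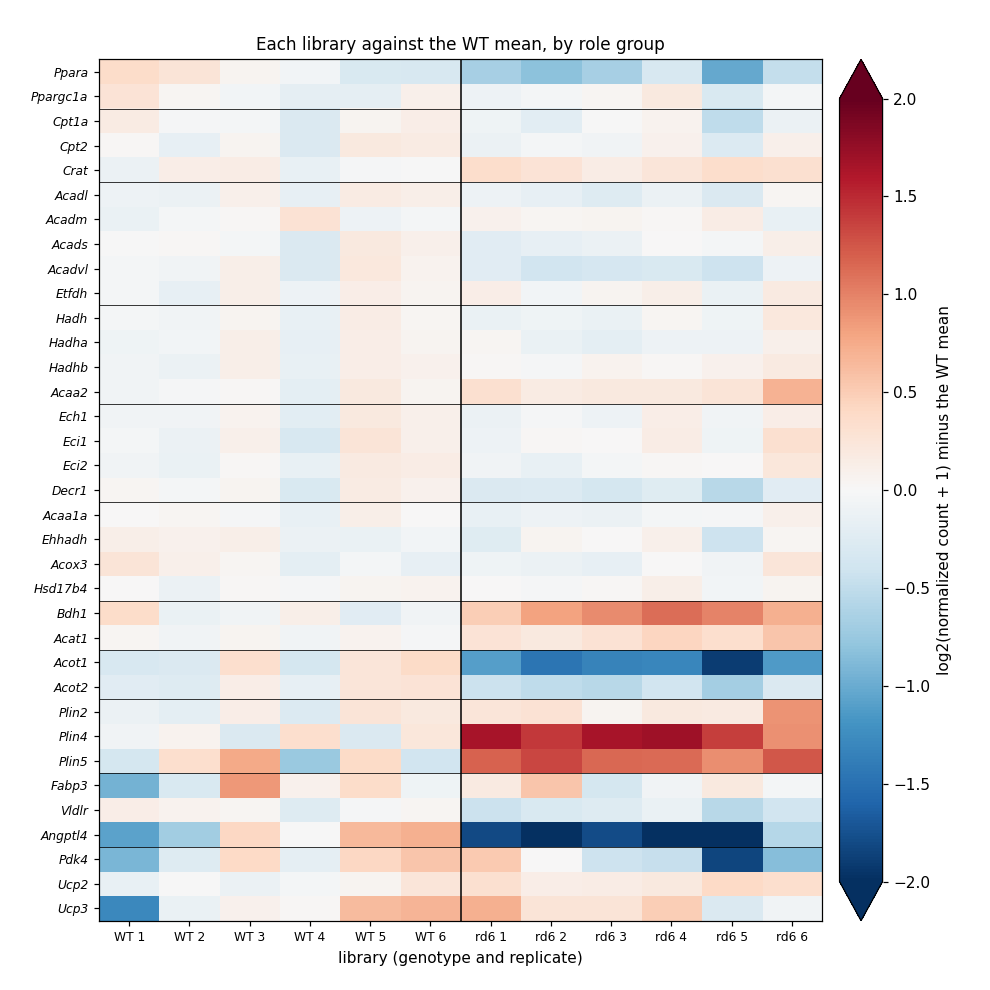
Log2(normalized count + 1) of each member in each library minus the mean of the 6 WT libraries, by role (colour from −2 to 2). Rows of *Plin4*, *Plin5* and *Bdh1* are red in all 6 rd6 libraries and those of *Acot1* and *Angptl4* are blue, while rd6 replicate 6 stands out in *Acaa2*, *Plin2* and *Angptl4*.

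The rest of the pathway was followed in a list of 75 further genes, of which 64 were tested. Among them 10 rose (15.6%) and 9 fell (14.1%), near the 11.4% and 11.6% of all genes, and 8 rose and 8 fell without the libraries rich in keratin. The median log2 fold change was 0.01, and 3 rose and 1 fell by at least 0.81 on the log2 scale, of 64 tested, where 4.69% and 2.12% of all genes did so. The largest changes were those of *Cidea*, *Pdk1* and *Lpl*. *Cidea*, a droplet fusion protein, had 2.96 to 24.3 normalized counts in WT and 20.1 to 74.9 in rd6 libraries (log2 fold change 2.14, limma q = 0.00738), with few reads behind the WT values. *Pdk1*, another pyruvate dehydrogenase kinase, rose from 798 to 1119 in WT to 2370 to 3514 in rd6 libraries without overlap (log2 fold change 1.61, limma q = 4.44e-07). Chosen after their values were seen, *Slc16a1*, the monocarboxylate transporter that also exports ketone bodies, fell from 37619 to 54015 in WT to 18050 to 30789 in rd6 libraries (limma q = 0.000201), and *Oxct1*, the enzyme that starts the use of ketone bodies, rose by 0.47 on the log2 scale (limma q = 0.00173).

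Lists of other mitochondrial and peroxisomal genes give the setting. Of 16 genes of the TCA cycle, 7 rose (43.8%) and 0 fell (median log2 fold change 0.14), where 11.4% of all genes rose and 11.6% fell. Of 12 genes of mitochondrial import and the outer membrane, 4 rose (33.3%) and 0 fell (median 0.11). Of 13 peroxisome assembly genes, 1 rose (7.69%) and 0 fell (median 0.01). The 16 tested members of the carnitine shuttle and the mitochondrial cycle with its auxiliary steps held 2 that rose, *Crat* and *Acaa2*, and 2 that fell, *Acadvl* and *Decr1*, 12.5% each way (median −0.02), a share near that of all genes. Differences between these lists were not tested.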

How the data were processed

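RPE libraries of 6 WT and 6 rd6 mice were compared. According to the study's methods, reads of a stranded total-RNA kit were aligned to mm10 and counted with Rsubread at standard parameters, and normalized with DESeq2. Versions and the strand setting are not given in the sources used here. What the authors deposited is a signal, namely read counts that were divided by a size factor for every library. They also deposited the log2 fold change, its standard error, the test statistic and p-values of their own comparison, which were not used.

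Of 28596 entries, 5 repeats of 4 identifiers were dropped. All values were whole multiples of the value of 1 read (100% within 0.001), so reads per gene were recovered. In all 66 pairs of libraries the chi-square per gene was 9.45 or more, so none was a copy of another. Size factors spanned 1.23-fold. Limits in reads cover counting error only.

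The main test was limma 3.58.1 (R 4.3.3) with a mean-variance trend on log2(value + 1) of the 17768 genes whose mean reached 10, genotype as the only term, two-sided, with Benjamini-Hochberg adjustment (q) over all of them and a threshold of 0.05. Fold changes on this scale understate those of low genes. The scripts were tested on simulated data. Other settings tried were a pseudocount of 0.1 or 10, a minimum of 10 per library or no minimum, TMM rescaling, edgeR 4.0.16 with TMM and upper-quartile normalization, DESeq2 1.42.0, the replicate number as a block, leaving out each library and, added after seeing the data, leaving out 3 libraries rich in *Krt5*.

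The members and lists were chosen with earlier results of these data known. Values per library are given for *Ppara* and *Ppargc1a*, for members past the fold limit of 0.81 on the log2 scale, and in each role group for the members with the highest level per kb and the largest fold change. Other genes named by rule were *Mfrp*, *Pparg*, *Ppard*, *Nnt* and the 3 largest changes of the further pathway genes. Some genes that the rule selects are not reported here. Levels per kb use the union of exons in GENCODE M21 (GRCm38), which has 28545 of the 28591 genes, and promoters are from RefSeq. Besides the overlaps named with the results, *Acaa1a*, *Acox3*, *Eci2*, *Etfdh*, *Fabp3* and *Hadha* share exon positions with genes on the other strand, *Cpt1b* with a gene model on its own strand, and *Acaa1a* has the close paralog *Acaa1b*.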

Additional observations from a re-analysis of the deposited data

Results flagged for a closer look

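In 4 of the 72 groups of 6 libraries tested, 1 library stood further from the others than Dixon's 95% limit allows, where chance flags about 1 in 20 groups. *Acadm* was at 2314 normalized counts in WT replicate 4. *Acaa2* was at 8610, *Plin2* at 8156 and *Angptl4* at 1347 in rd6 replicate 6, the highest rd6 value of each.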

How the results depend on the processing

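The numbers of members that rose and fell stayed at 7 and 7 under the other pseudocounts, filters, normalizations and tools. With the replicate number as a block they were 7 and 6, *Decr1* being at limma q = 0.0512, and of the further pathway genes 6 rather than 10 rose and 6 rather than 9 fell. The deviations of same-numbered libraries from their group means had correlations from −0.743 to 0.315 over all genes tested. Whether such libraries were handled together is not stated. Leaving out 1 library at a time gave 6 to 7 members that rose and 7 that fell, and 7 to 12 further pathway genes that rose and 6 to 12 that fell. With *Krt5*-rich libraries left out, 5 and 7 were called. The main fit had 2024 of all genes higher and 2062 lower, and edgeR with TMM had 1981 and 2085. Upper-quartile normalization in edgeR gave 2374 and 1583, with the members still at 7 and 7. The median log2 fold change of all genes was then 0.04, against 8.4e-05 with TMM in edgeR. Of the further pathway genes 14 rose and 6 fell with upper-quartile normalization, against 10 and 9 both in the main fit and in edgeR with TMM.

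The members that changed sign in some setting were uncalled, and the cause was not tested. Under upper-quartile normalization, log2 fold changes became 0.0111 for *Hadh*, 0.0259 for *Ech1*, 0.0367 for *Eci2* and 0.0024 for *Acox3*. *Fabp3* was at −0.0015 with edgeR and TMM and −0.0006 with DESeq2. Without the *Krt5*-rich libraries *Ppargc1a* was at 0.0039 and *Ehhadh* at 0.0255. On leaving out 1 library, *Ppargc1a* ranged from −0.0869 to 0.0128, *Ech1* from −0.0512 to 0.0277, *Eci1* from −0.0119 to 0.1035, *Eci2* from −0.0469 to 0.0341, *Acox3* from −0.0872 to 0.0177, *Hsd17b4* from −0.0062 to 0.0342, *Fabp3* from −0.112 to 0.2481 and *Ucp3* from −0.0312 to 0.363. The log2 difference of the *Acot1* to *Acot2* ratio ranged from −0.945 to −0.838 on leaving out 1 library, each p being the smallest its arrangements allow. Low counts limit *Plin5*, *Cidea* and *Cpt1b*.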
